A study of Mus musculus with 9 samples.

Results

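Gsta4, Prdx2 and Duox1, genes of redox balance and detoxification, were followed in mouse intestinal tumours with arrays made for circular RNA. Gsta4 had its lowest group mean in the high-fat diet group (HFD), with the mean of the HFD+Abx group close to it. Every HFD array lay below every control array, as for 4.73% of all tested probes. Array position also moved with these groups. No difference of any of the 3 genes passed the threshold adjusted over all probes. The 3 genes were chosen by name, from the transcript accession printed beside each probe, and make up 3 of the 44 genes that could be named among the 50 mRNA probes of the array. The other 14236 probes of interest detect circular RNAs, closed loops made by back-splicing. Each gene has 1 probe, spotted 10 times: A_51_P112223 for Gsta4 (transcript NM_010357), A_51_P147207 for Prdx2 (NM_011563) and A_51_P475138 for Duox1 (NM_001099297). Neither probe sequences nor genome positions of the probes were used here.

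The samples are 9 arrays in 3 groups of 3, named CTR, HFD and HFD+Abx by their titles. All are total RNA of mouse intestinal tumours. The design text speaks of a high-fat diet, taken here as HFD, while Abx is not spelled out and is kept as written, and the diet of CTR, the strain, the age of the mice and the origin of the tumours are not given in the sources used here. In all groups the RNA had been treated with RNase R, which degrades linear but not circular RNA, before amplification with random primers and Cy3 labelling. Nothing says whether replicates are separate animals, so p-values measure only the spread between these samples, which may be technical.

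Gsta4 encodes a glutathione transferase of the alpha class that joins glutathione to hydroxynonenal, a reactive aldehyde released when membrane lipids are oxidised. Prdx2 encodes a cytosolic peroxiredoxin, a thiol enzyme that removes hydrogen peroxide and is abundant in red blood cells. Duox1 encodes a dual oxidase, a membrane enzyme of epithelia that makes hydrogen peroxide and needs the partner protein Duoxa1 to leave the endoplasmic reticulum. In the gut, peroxide from dual oxidases is known as part of the defence of the epithelium at its surface. The set thus holds 1 source of peroxide and 2 enzymes that remove peroxide or its products.

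Of 98 genes listed for these pathways, these 3 only are among the named mRNA probes: 1 of 31 glutathione transferases and conjugation genes, 1 of 24 genes of peroxide and superoxide removal, 1 of 15 oxidases and 0 of 28 other detoxification genes. The circRNA probes were not matched to genes. The other members of the pathways were therefore not analysed here. None of the 17 markers of intestinal epithelium and none of the 6 erythroid markers is among the named mRNA probes, so the tissue label and the cell make-up could not be checked. Of all 51 cell type markers listed, only 1 is among the named mRNA probes, Gabrg1, listed for neuron and glia. In bulk tissue, fewer cells of a type and less RNA per cell cannot be told apart.

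Levels below are log2 processed signals, averaged over the spots of a probe, relative to the 75th percentile of the circRNA probes on the same array. A level of 0 thus equals that percentile, and differences are in log2 units. All 3 genes passed the filter on dim probes. All 90 spots of each gene over the 9 arrays were well above background by the scanner software's mark and 0 were saturated. The software marked 0 spots of Gsta4, 6 of Prdx2 and 2 of Duox1 as outliers, and these were left out. Because linear RNA had been digested, each gene was set against 15 probes named as negative, printed 10 times each on the same arrays. These negative probes were not uniform: their median lay between -4.30 and -3.55, whereas the brightest of them, MM9NEGATIVE016 on all 9 arrays, lay between 0.017 and 0.91.

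**Figure D1:**
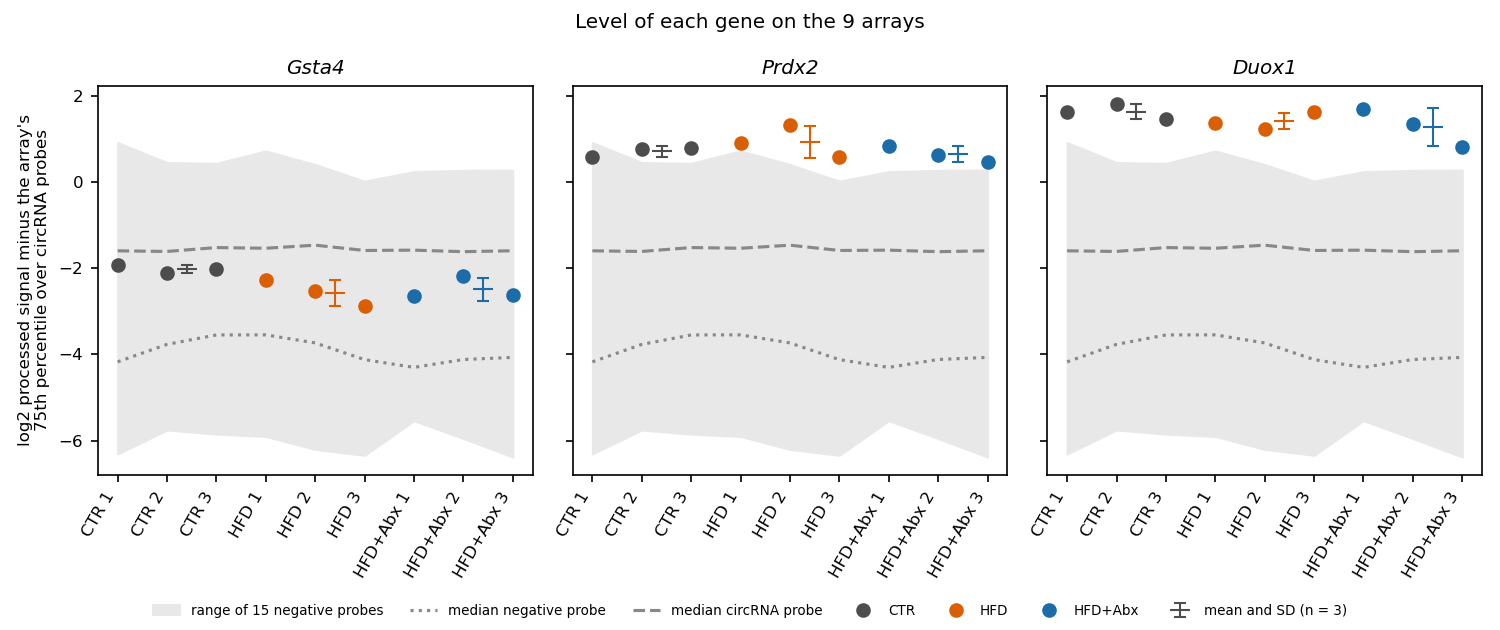
Level of Gsta4, Prdx2 and Duox1 on each of the 9 arrays (points; log2 processed signal minus the 75th percentile over circRNA probes), with the group mean and SD to the right of each group's middle array, the range of the 15 negative probes in grey, their median dotted and the median circRNA probe dashed. Gsta4 lies inside the grey range on all arrays, Prdx2 at its upper edge and Duox1 above it.

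Gsta4 had a dim probe, with a processed signal of 14.4 to 31.4 scanner units and a median spot signal 2.31 to 3.80 times its local background. It lay above 12 of the 15 negative probes on each of the 9 arrays, and below the other 3 on each. Its margin over the median negative probe was 1.20 to 2.25. Signal of this probe was therefore above most, but not all, of what the negative probes gave, and how much of it came from the transcript was not tested.

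The level of Gsta4 was -1.92 on CTR 1, -2.12 on CTR 2 and -2.01 on CTR 3. It was -2.28 on HFD 1, -2.54 on HFD 2 and -2.88 on HFD 3. It was -2.65 on HFD+Abx 1, -2.19 on HFD+Abx 2 and -2.63 on HFD+Abx 3. All 3 HFD arrays and all 3 HFD+Abx arrays thus lay below the lowest CTR array, while the HFD and HFD+Abx arrays overlapped. Of all tested probes, 4.73% lay lower without overlap in HFD vs CTR and 10.4% in HFD+Abx vs CTR. The share with both was not counted. The CTR arrays lay close together (SD 0.099), and the other groups were wider (SD 0.30 in HFD and 0.26 in HFD+Abx).

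The first comparison asked whether Gsta4 differs under a high-fat diet. It averaged -2.56 ± 0.30 in HFD and -2.02 ± 0.10 in CTR (SD, n = 3 each), a difference of -0.55 (SE 0.20, 95% interval -0.98 to -0.11), or 0.685-fold (0.507 to 0.925). In limma the unadjusted p was 0.019 and the p adjusted over all 13602 tested probes was 0.999, so the difference did not pass. The exact permutation p was 0.10, the smallest that 3 arrays against 3 can give (two-sided). Among all tested probes, 0 passed the adjusted threshold in limma (0.0%) and 500 had an unadjusted p under 0.05 (3.68%), of which 86 were lower in HFD (0.632%). Groups that did not overlap, with HFD lower, were found for 643 probes (4.73%). A difference of larger size than that of Gsta4 in either direction was seen for 3.70% of tested probes, and 0 of the 15 negative probes differed as much, the lowest of them by -0.44. At each of the 10 spot positions the mean of the HFD arrays was below that of the CTR arrays, by -0.75 to -0.36, which is a technical repeat within the same 6 samples.

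With Abx added to the high-fat diet, Gsta4 averaged -2.49 ± 0.26 (SD, n = 3), a difference from HFD of 0.075 (SE 0.20, 95% interval -0.36 to 0.51). It did not pass in limma (adjusted p = 0.91), and the exact permutation p was 0.90. The interval spans 0.78-fold to 1.42-fold of the HFD level. At single spot positions the HFD+Abx mean was higher at 6 and lower at 4. In that comparison 0 of 13603 probes passed in limma (0.0%) and 1283 had an unadjusted p under 0.05 (9.43%).

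Between HFD+Abx and CTR Gsta4 differed by -0.47 (SE 0.20, 95% interval -0.90 to -0.037). The unadjusted p was 0.036 and the adjusted p 0.38 in limma, and the exact permutation p was again 0.10. Here 0 of 13602 probes passed (0.0%), 1702 had an unadjusted p under 0.05 in limma (12.5%), of which 1161 were lower in HFD+Abx (8.54%), and groups did not overlap with HFD+Abx lower for 1418 probes (10.4%). Both this comparison and HFD vs CTR use the same CTR arrays. The negative probes also lay lower in HFD+Abx, 11 of 15 with a median difference of -0.26, and 4 of them were lower by more than Gsta4. Relative to the median negative probe of each array, a scale added after seeing the data, Gsta4 differed between HFD+Abx and CTR by -0.14 (SE 0.29). That scale subtracts 1 value per array and so moved all probes together, to a median of 0.30. Relative to the median of all tested probes Gsta4 was at -0.44. This value is the same on both scales by construction and so tests nothing. The difference was -0.21 without background subtraction and -0.14 with normexp correction.

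Array position moved with these values. The file headers hold a barcode-like position code, read here as a position column of a slide. By this reading CTR 1 to 3 and HFD 1 lie in column 1, and the other 5 arrays in column 2. Gsta4 ranged from -2.28 to -1.92 in column 1 and from -2.88 to -2.19 in column 2. Within column 1, HFD 1 was the lowest of the 4 arrays, and its difference from CTR, the value with position column as a block, was -0.26 (SE 0.27). With the same block HFD+Abx vs CTR was -0.044 (SE 0.34). CTR and HFD+Abx share no column, so for these groups column and group cannot be told apart without the HFD arrays. The step between columns rests on HFD 1 against HFD 2 and HFD 3. Leaving out 1 array at a time gave -0.69 to -0.39 for HFD vs CTR, and the unadjusted p exceeded 0.05 without CTR 1 (0.057) or HFD 3 (0.082, both in limma). Without background subtraction the difference was -0.21. With normexp correction it was -0.091, with an offset of 50 added to each signal, which shrinks differences between dim values.

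**Figure D2:**
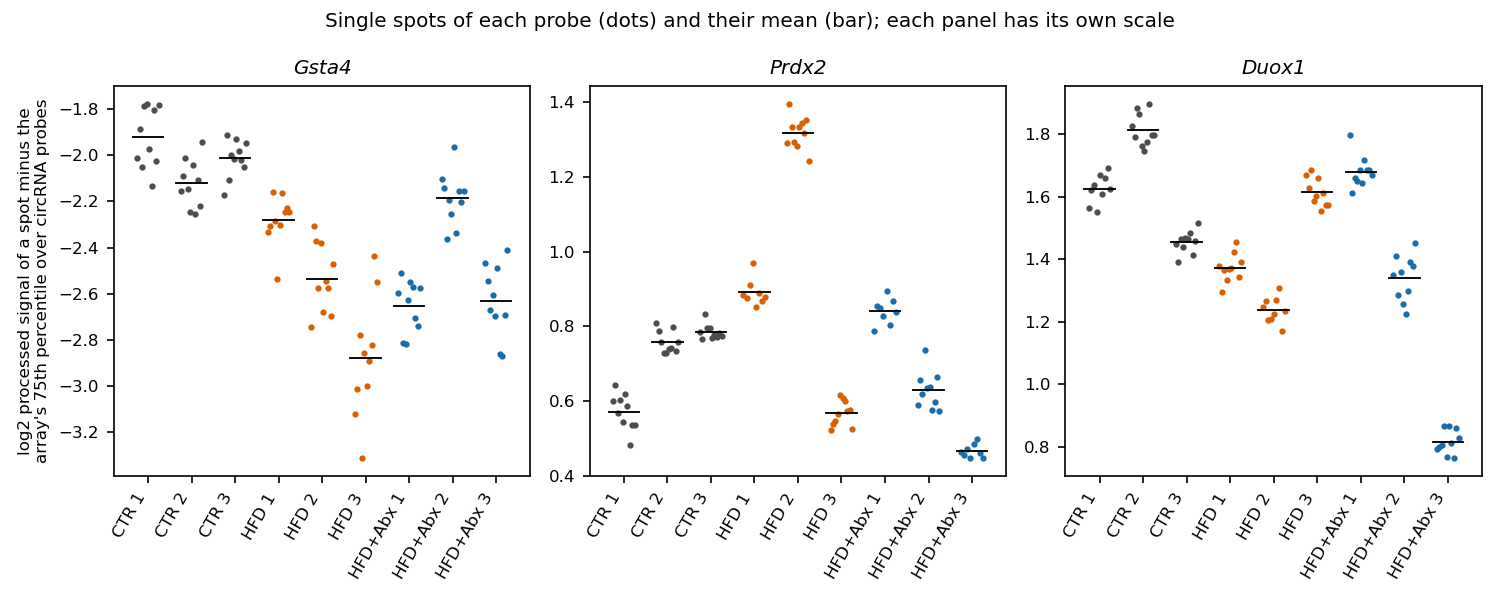
Single spots of each probe on the 9 arrays (points; log2 processed signal minus the 75th percentile over circRNA probes, outlier spots left out) with their mean as a bar, each panel on its own axis. The spots of Gsta4 scatter most, with an SD of up to 0.26 on HFD 3, and those of HFD 2 for Prdx2 and HFD+Abx 3 for Duox1 stand apart from the other arrays.

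Prdx2 had a processed signal of 157 to 238 scanner units and a spot signal 12.6 to 20.5 times its local background. It lay above all 15 negative probes on 8 of the 9 arrays and above 14 on CTR 1. The negative probe it did not clear there, MM9NEGATIVE016, was close to it on every array: Prdx2 lay between -0.34 and 0.92 from it. The spots within an array were tight, with an SD of 0.018 to 0.049.

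The level of Prdx2 was 0.57 on CTR 1, 0.76 on CTR 2 and 0.78 on CTR 3. It was 0.89 on HFD 1, 1.32 on HFD 2 and 0.57 on HFD 3. It was 0.84 on HFD+Abx 1, 0.63 on HFD+Abx 2 and 0.47 on HFD+Abx 3. All groups overlapped. HFD held both the highest array of the 9 and the second lowest, so its spread (SD 0.38) was larger than that of CTR (SD 0.12) and HFD+Abx (SD 0.19).

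Prdx2 averaged 0.93 ± 0.38 in HFD and 0.71 ± 0.12 in CTR (SD, n = 3 each), a difference of 0.22 (SE 0.20, 95% interval -0.23 to 0.67). It did not pass in limma (unadjusted p = 0.30, adjusted p = 0.999), and the exact permutation p was 0.50. HFD+Abx averaged 0.64 ± 0.19 and differed from HFD by -0.28 (SE 0.20, 95% interval -0.73 to 0.17; adjusted p = 0.65 in limma, exact permutation p = 0.40). From CTR it differed by -0.060 (SE 0.20, 95% interval -0.51 to 0.39; adjusted p = 0.91 in limma, exact permutation p = 0.70). HFD 1 and HFD 2 lay above every CTR array and HFD 3 below every one, so the mean of HFD depended on single arrays. Without HFD 2 the difference from CTR was 0.024, and that of HFD+Abx from HFD was -0.084. Without HFD 3 the same differences were 0.40 and -0.46, and neither passed (adjusted p = 0.986 and 0.51 in limma). Larger differences were common, at 29.0% of tested probes for HFD vs CTR, and 4 of the 15 negative probes also differed by more.

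Duox1 had a processed signal of 201 to 387 scanner units and a spot signal 15.8 to 36.1 times its local background. It was above all 15 negative probes on all 9 arrays, by 0.54 to 1.60 over the brightest. Of the 3 genes it was thus the only one that cleared every negative probe on every array. Its spot SD within an array was 0.035 to 0.072.

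The level of Duox1 was 1.62 on CTR 1, 1.81 on CTR 2 and 1.45 on CTR 3. It was 1.37 on HFD 1, 1.24 on HFD 2 and 1.61 on HFD 3. It was 1.68 on HFD+Abx 1, 1.34 on HFD+Abx 2 and 0.82 on HFD+Abx 3. The groups overlapped in all 3 comparisons. The HFD+Abx arrays spread most (SD 0.44, against 0.18 in CTR and 0.19 in HFD), and HFD+Abx 3 was the lowest of all 9 arrays.

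Duox1 averaged 1.41 ± 0.19 in HFD and 1.63 ± 0.18 in CTR (SD, n = 3 each). These means lay -0.22 apart (SE 0.22, 95% interval -0.72 to 0.27). That did not pass in limma (adjusted p = 0.999), and the exact permutation p was 0.20. The difference was -0.13 without CTR 2 and -0.14 without HFD 2. HFD+Abx averaged 1.28 ± 0.44. It differed from CTR by -0.35 (SE 0.22, 95% interval -0.85 to 0.14; adjusted p = 0.50 in limma, exact permutation p = 0.30) and from HFD by -0.13 (SE 0.22, 95% interval -0.62 to 0.37; adjusted p = 0.86 in limma, exact permutation p = 0.80). The lower mean in HFD+Abx rested largely on HFD+Abx 3. Without that array the difference from CTR was -0.12 and that from HFD 0.10, whereas without HFD+Abx 1 they were -0.55 and -0.33. By the scan identifiers, read here as slides, HFD+Abx 2 and 3 are the only arrays of the second slide, where Duox1 was 1.34 and 0.82. When slide entered as a block, only HFD+Abx 1 informed the comparison, and Duox1 differed by 0.050 from CTR and 0.27 from HFD.

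The brightest negative probe, 1 of the 15, had nearly the same differences between groups as Duox1. MM9NEGATIVE016 differed by -0.22 in HFD vs CTR, -0.12 in HFD+Abx vs HFD and -0.34 in HFD+Abx vs CTR. Relative to it, Duox1 averaged 1.03 ± 0.33 in CTR, 1.03 ± 0.50 in HFD and 1.02 ± 0.45 in HFD+Abx (SD, n = 3 each). The spread within groups on that scale was as wide as or wider than on the main one, so array by array Duox1 and the negative probe differed more than their group means. Over all 15 negative probes, 8 were lower and 7 higher in HFD vs CTR (median difference -0.021). The next brightest, MM9NEGATIVE017, differed by -0.21 in HFD vs CTR, -0.071 in HFD+Abx vs HFD and -0.28 in HFD+Abx vs CTR. MM9NEGATIVE015, the next after that, went the other way, by 0.18, 0.24 and 0.42 in the same comparisons. Relative to the median negative probe, Duox1 averaged 5.46 in CTR, 5.21 in HFD and 5.44 in HFD+Abx. Relative to MM9NEGATIVE016, Prdx2 averaged 0.11 in CTR, 0.55 in HFD and 0.38 in HFD+Abx. Whether background contributes to these differences was not tested.

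**Figure D3:**
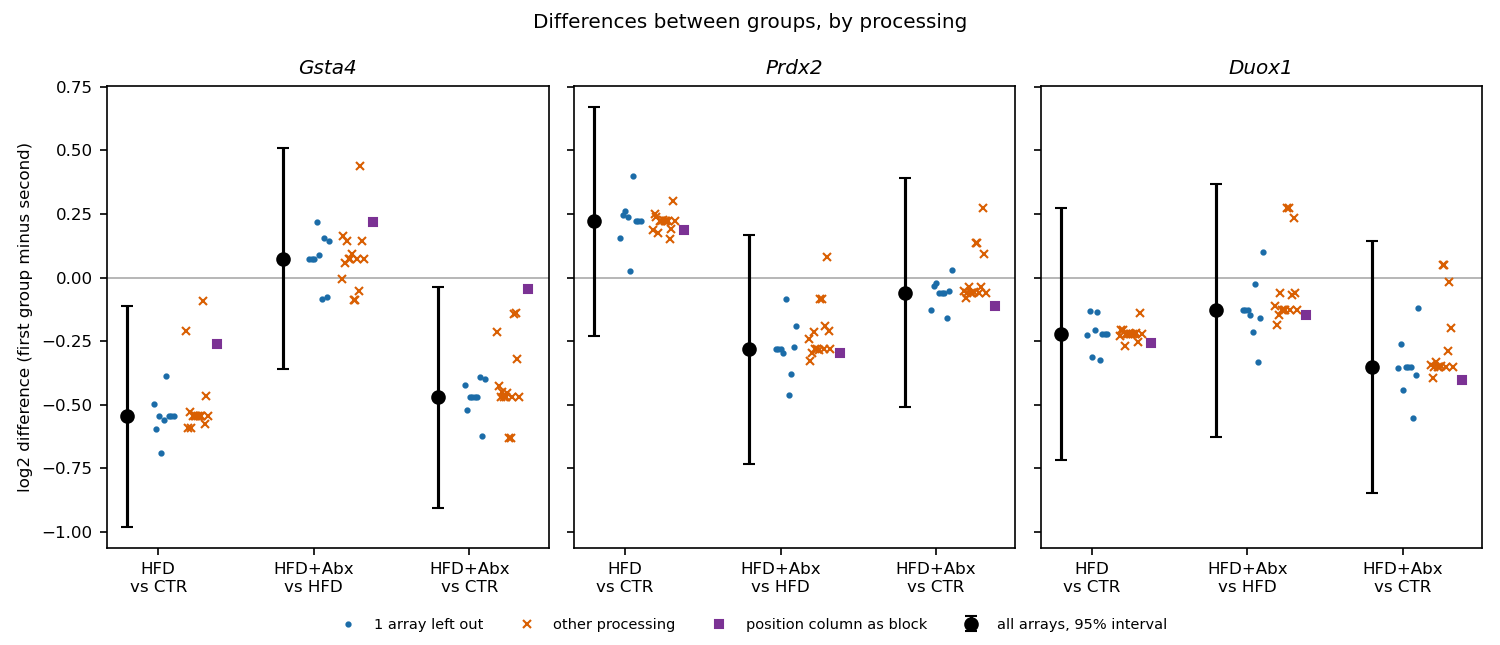
Difference of each gene in the 3 comparisons (log2, first group minus second): the value over all arrays with its 95% interval (black), with 1 array left out (blue), under other processing (crosses) and with position column as a block (squares). The intervals of Prdx2 and Duox1 include 0 in every comparison. Gsta4 moves toward 0 against CTR with the position block, in which HFD 1 alone shares a column with CTR.

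Over the 3 groups together, the moderated F test of limma gave an unadjusted p of 0.038 for Gsta4, 0.38 for Prdx2 and 0.32 for Duox1, with adjusted p of 0.56, 0.75 and 0.72. For Gsta4 the unadjusted p in that test ranged from 0.018 to 0.13 with 1 array left out, the highest without CTR 1, stayed under 0.05 only without HFD 1 or HFD+Abx 2, and was 0.40 with position column as a block. Of all 13602 probes, 0 passed (0.0%) and 1211 had an unadjusted p under 0.05 in that test (8.90%). Groupings of the 9 arrays that separated Gsta4 at least as well numbered 26 of the 280 possible (exact permutation p = 0.093), against 112 for Prdx2 (p = 0.40) and 107 for Duox1 (p = 0.38). The smallest p this design can give is 0.0036. Replicate spread of the 3 genes was ordinary for these arrays: their SD within groups was 0.24 for Gsta4, 0.25 for Prdx2 and 0.29 for Duox1, beside a median of 0.25 over 13593 probes.

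**Figure D4:**
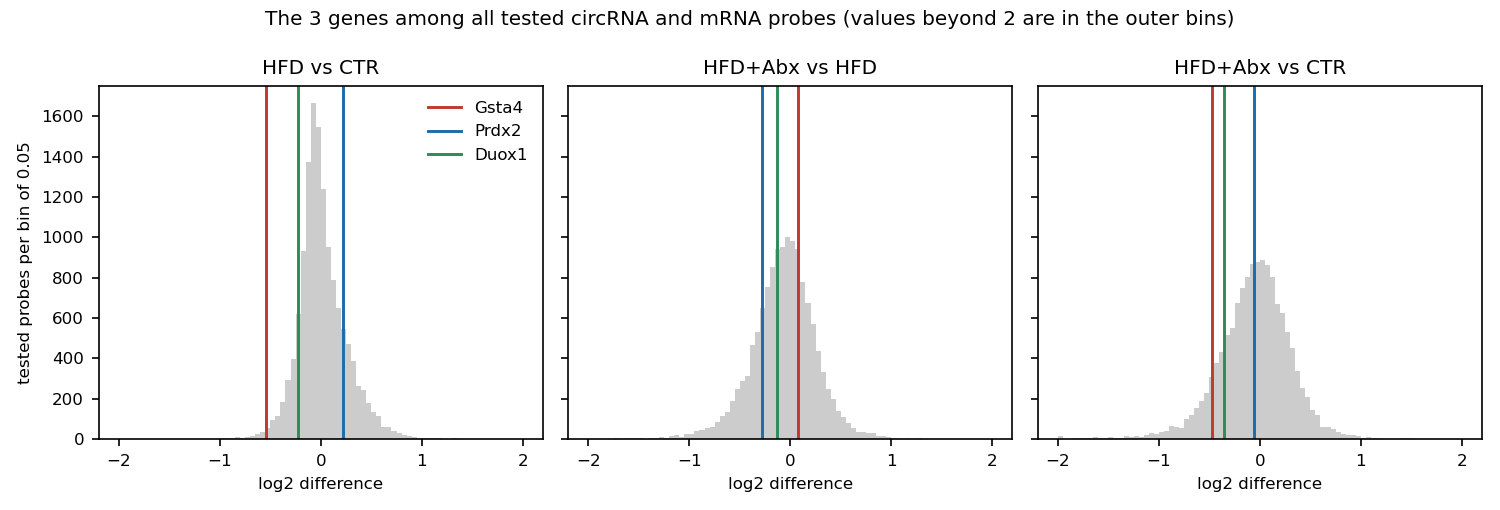
Distribution of log2 differences over all tested circRNA and mRNA probes in each comparison (histogram, bins of 0.05), with lines for Gsta4, Prdx2 and Duox1. Gsta4 lies in the lower tail in HFD vs CTR (-0.55), where 3.70% of probes differ by more in size.

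The members were also placed among the 47 mRNA probes tested. In HFD vs CTR 33 of these were lower and 14 higher, with a median of -0.055 (-0.019 over all tested probes). Gsta4 had the second lowest difference, after Gabrg1 at -0.62. In HFD+Abx vs CTR the split was again 33 lower and 14 higher, with a median of -0.074 (-0.033 over all tested probes), and 7 probes were lower than Gsta4. The 3 genes did not share a pattern over the 9 arrays, with a Pearson r of -0.042 between Gsta4 and Prdx2, 0.25 between Gsta4 and Duox1 and 0.042 between Prdx2 and Duox1.

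Likeness to the other 43 named mRNA probes was measured by Pearson r over the 9 arrays, which share group, slide and scaling, and is given as a description only. The profile most like Gsta4 was that of Uhrf1bp1l (r = 0.83), with means of -1.20 in CTR, -1.55 in HFD and -1.91 in HFD+Abx. Gabrg1, a subunit of the GABA-A receptor, followed (r = 0.73) and then Rps4l (r = 0.56). For Prdx2 the closest were Mzb1 (r = 0.63), Dnajc11 (r = 0.62) and Taf1a (r = 0.59). For Duox1 they were Lhx1, a homeobox transcription factor (r = 0.92), Cep41 (r = 0.90) and Acaa2, an enzyme of mitochondrial fatty acid oxidation (r = 0.84). Of these 9 like probes, only Lhx1 was above every negative probe on all 9 arrays. Higher values of r than these best matches were found for 0.126% of 13494 circRNA probes with Gsta4, 6.83% with Prdx2 and 1.39% with Duox1.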

How the data were processed

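The deposited files are scanner output, 1 per array, written by Agilent Feature Extraction version 11.0.1.1 as their headers state. Per the file headers, they hold spot intensity values, among them a processed signal from which the software had subtracted background, without normalisation between arrays. Other spot flags of the deposited tables (outlier, saturated, well above background) were used as given. The table of log2 values for circRNA probes was not used here. Outlier spots were left out, log2 spot signals were averaged per probe, and each array was scaled by subtracting the 75th percentile of its circRNA probes. The 13556 circRNA and 47 mRNA probes that the software marked as well above background on 3 or more arrays were fitted together in limma (version 3.58.1, R 4.3.3; lmFit, eBayes), with 3 group means, no covariate, and Benjamini-Hochberg adjustment over all of them. A call was an adjusted p under 0.05. The code was tested on simulated data. The genes, lists and tests were chosen with earlier results of these data known. Named beside the 3 genes were, by rule, other genes of the redox lists and the 3 mRNA probes most like each. Accessions were matched to symbols in a RefSeq table of GRCm38.p6, whose coordinates were not used because the array grid is of mm9. Slides were inferred from scan identifiers, and position columns from a barcode-like position code, both in the file headers. Results by slide or position column rest on that reading. Same-numbered arrays of different groups did not all deviate together (r over probes -0.37 to 0.39, over 0.1 in 3 of 9 pairs), so replicate numbers were not taken as pairs. The number of arrays limits the precision. Alternatives covered background correction, scaling, filter, spots, slide, position, replicate block, samples in the fit, and each array left out.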

Additional observations from a re-analysis of the deposited data

How the results depend on the processing

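No difference of the 3 genes passed the adjusted threshold under any of the 24 alternatives run for each comparison or the 23 for the F test. For HFD vs CTR none changed sign. Several of the alternatives could not move this difference, since they leave the CTR and HFD means as they are. These were the filters, slide, replicate block, the compared groups fitted alone, and an HFD+Abx array left out. For HFD+Abx vs HFD, Gsta4 (0.075) became 0.44 on the scale of the negative probes, -0.0036 without background subtraction, -0.051 with normexp and -0.087 on slide 1 alone or with slide as a block. Duox1 there (-0.13) became 0.27 on slide 1 alone or with slide as a block and 0.23 on the scale of the negative probes, and Prdx2 (-0.28) became 0.081 on the latter. For HFD+Abx vs CTR, Prdx2 (-0.060) became 0.14 on slide 1 alone or with slide as a block, 0.27 on the scale of the negative probes and 0.092 on that of the mRNA probes, and Duox1 (-0.35) became 0.050 on slide 1 alone or with slide as a block. The scale of the negative probes moved the median of all probes to 0.31 in HFD+Abx vs HFD and 0.30 in HFD+Abx vs CTR. That of the mRNA probes moved it to 0.12 in HFD+Abx vs CTR. Each scale subtracts 1 value per array, so a difference relative to the median of all probes is the same on each by construction. Relative to that median, Prdx2 and Duox1 were lower in these comparisons, and Gsta4 in HFD+Abx vs HFD was at 0.13. With 1 array left out, Gsta4 ranged from -0.082 to 0.22 and Duox1 from -0.33 to 0.10 in HFD+Abx vs HFD, and Prdx2 from -0.16 to 0.029 in HFD+Abx vs CTR. Over all probes, 0 calls became 4 in HFD+Abx vs CTR with a slide block, 1 within slide 1, 2 with replicate number as a block and 0 to 32 with 1 array left out. In HFD+Abx vs HFD they became 1 on slide 1 alone, 1 on the scale of the negative probes and 0 to 2 with 1 array left out. The replicate block could not move the 3 genes' differences, since each group holds 1 array of each replicate number. With it the SE of Gsta4 in HFD vs CTR (-0.55) was 0.19. The causes were not tested. Normexp, with an offset of 50, used the median spot signal, since the planned mean signal was not used here. Normexp and the scales of the negative and mRNA probes were added after seeing the data.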
